A study of Homo sapiens with 15 samples.

Results

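The HOX genes were the 39 protein-coding genes of GENCODE v44 whose symbols are HOXA, HOXB, HOXC or HOXD followed by a number, of 20033 protein-coding genes in all. They were chosen by name alone, and no measured value entered the rule, but the choice was made with earlier results of these data known. HOX genes encode homeodomain transcription factors that give cells their position along the body axis. They lie in 4 clusters, the order of the genes along a cluster mirrors the order of their expression domains, and genes at the same place in different clusters form a paralogous group. Polycomb complexes keep silent HOX genes repressed, while active ones carry Trithorax-type methylation of histone H3. In the kidney, the HOX11 paralogs act with EYA1 and SIX2 in the progenitor mesenchyme from which the nephron forms.

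Accessible chromatin was profiled by ATAC-seq, in which the transposase Tn5 cuts and tags open DNA, in RPTEC, human renal proximal tubule epithelial cells immortalized with hTERT. WT cells were compared with KO1 and KO2, clones with CRISPR/Cas9 frameshifts in both alleles of SETD2, and with Rescue1 and Rescue2, clones of knockout cells that carry a lentiviral copy of wild-type SETD2. SETD2 is the methyltransferase that places the third methyl group on lysine 36 of histone H3. Each line had 3 libraries, so KO and rescue had 6 libraries each and WT had 3. Each KO or rescue line is 1 clone, its libraries are replicates of that clone, and the parent KO clone of the rescue lines was not given in the sources used here. Nothing in the labels says whether libraries came from separate cultures, so p-values measure the spread between these libraries, which may be technical.

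Only called peaks were used, so a locus without a peak lay below the calling threshold and was not shown to be closed. The lists held from 196969 to 265193 peaks on chromosomes 1 to 22, X and Y, and from 49.4 to 65.2 Mb lay under peaks. Read depth could not be taken from the peak lists, and calling at the threshold limits the precision of each value. The start site of SETD2, whose edit is a frameshift that a peak list does not check, held a peak in all 15 libraries. PAX8, a transcription factor of the renal epithelium, and 3 of 4 epithelial markers (EPCAM, KRT8 and KRT18) held a start-site peak in all 15 libraries. The other, the cadherin gene CDH1, held one in all 3 WT libraries and 1 KO2 library alone, and was lower in KO than in WT (-0.35 on the log2 scale, limma adjusted p = 0.00428), and its part in the HOX results was not tested. The labelled proximal tubule identity was only partly borne out, since 4 of 8 proximal tubule markers held no start-site peak in any library (CUBN, SLC34A1, AQP1 and HNF4A). Of 5 blood and endothelium markers, 4 held none in any library.

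The positional code was read first from the start sites. A called peak within 500 bp of the canonical start was found in all 15 libraries for 23 of the 39 HOX genes (59.0%), in some libraries for 11 and in no library for 5. Over all protein-coding genes, 66.2% held such a peak in all libraries and 23.3% in none. With only peaks at a −log10 q of at least 5, the shares in all libraries were 38.5% of HOX genes and 64.3% of all genes. The number of occupied HOX start sites ran from 28 (Rescue2 replicate 2) to 34 (KO1 replicate 1) of 39. The occupied start sites were not confined to one end of the clusters. Of the anterior paralogs 1 to 4, 7 of 12 were occupied in all libraries, as were 6 of 11 of the central paralogs 5 to 8 and 10 of 16 of the posterior paralogs 9 to 13.

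**Figure D1:**
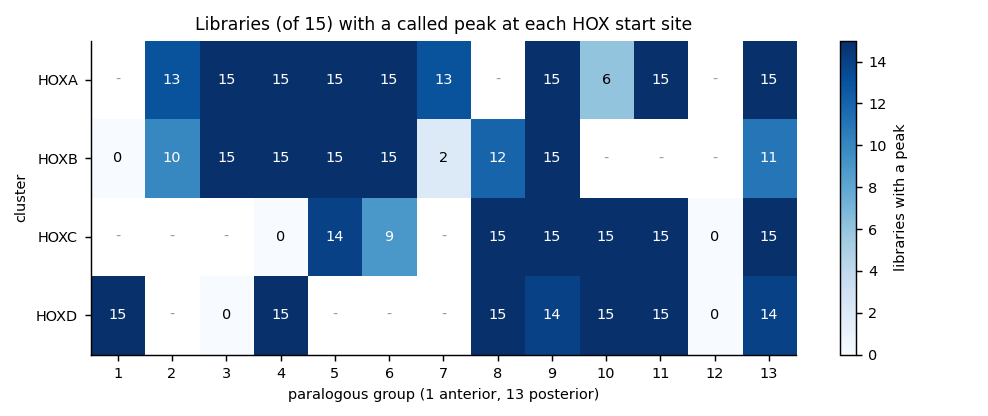
Number of the 15 libraries with a called peak within 500 bp of the start site of each HOX gene, by cluster (rows) and paralogous group (columns). A dash marks a place with no gene or with one that is not shown. All 3 genes of group 11 stand at 15 and both genes of group 12 stand at 0.

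All 3 members of paralogous group 11 (HOXA11, HOXC11 and HOXD11) held a start-site peak in every library. Both members of group 12, HOXC12 and HOXD12, held none in any library. The other genes without a start-site peak in any library were HOXB1, HOXC4 and HOXD3. HOXB1, the most anterior gene of its cluster, had 0 bases under peaks over the gene and 2 kb on each side in all 15 libraries, and HOXC12 had 77 bases in WT replicate 1 and 0 in the others. These 2 genes therefore could not be tested. HOXC4, HOXD3 and HOXD12 did have peaks elsewhere in their loci, at means of 2422, 3858 and 458 bases. HOXC4 and HOXD3 are long gene records that contain other HOX genes, so much of that coverage is shared. Over 1000 bp instead of 500 bp, the number of genes without a start-site peak was 3. At the upstream end of the gene record instead of the canonical start, 24 HOX genes held a peak in all libraries and 4 in none. The shares over all protein-coding genes were then 61.7% and 26.8%.

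Among the 11 start sites with a peak in some libraries, those of HOXA10, HOXC6 and HOXB13 ranged from no library of a line to all 3. At its canonical start, HOXA10 held a peak in 0 of 3 WT, 3 of 3 KO1, 0 of 3 KO2, 2 of 3 Rescue1 and 1 of 3 Rescue2 libraries. That start lies inside a longer gene record, whose upstream end falls in a region with called peaks, chr7:27179564-27180461. The start site of HOXC6 was occupied in 2 of 3 WT, all 6 KO, 0 of 3 Rescue1 and 1 of 3 Rescue2 libraries. HOXB13, the most posterior gene of its cluster, was occupied in 2 of 3 WT libraries, all 6 KO libraries, 0 of 3 Rescue1 libraries and 3 of 3 Rescue2 libraries. The peaks at the canonical start of HOXA10 were weak, with a median fold enrichment at the 2.34th percentile of their own lists, among the weakest peaks called. The same measure was at 28.4 for HOXC6 and 29.9 for HOXB13.

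Peaks at HOX start sites were shallow beside those of other genes. Their median fold enrichment lay between the 11.6th and the 28.5th percentile of all peaks in the same library, against the 71.9th to 78.3th percentile for the start-site peaks of all genes. The fold enrichment is measured over the local background, which can be solved from the deposited fold and p of each peak. At HOX start sites that local background was 5.58 to 6.98 times the genome-wide level of its library, and 3.49 to 4.14 times over all start sites. The pileup itself was also lower, at 25.6 to 38.1 times the genome-wide level, against 44.4 to 60 times. The HOX range and the range over all start sites did not overlap in any of the 3 measures. The strongest start-site peaks by median percentile were those of HOXC13 (81.4), HOXA13 (71.8) and HOXD1 (69.2), and the weakest were those of HOXA7 (1.13), HOXA6 (1.40) and HOXA3 (1.79).

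Although single peaks were shallow, the clusters were densely covered. Per kb and averaged over the libraries, HOXD carried 115.0 bases under peaks, HOXA 99.5, HOXC 65.6 and HOXB 53.1, against 18.1 over the genome. Those are 6.38, 5.50, 3.63 and 2.94 times the genome level. The HOXB interval is the longest, at 204 kb against 111 kb for HOXA, 121 kb for HOXC and 102 kb for HOXD. No HOX gene record lies between 48633572 and 48724763 of chromosome 17, inside that interval. In total bases HOXB was near HOXA, with WT means of 10112 and 11139. Of the 39 loci, 36 lay above the median of all protein-coding genes in bases per kb, and the HOX median was the 89.2th percentile. The highest was HOXD1 (247.0 bases per kb), and HOXD11 (178.0) came next, with further high values at HOXB9 (159.0), HOXC10 (158.0) and HOXC11 (152.0). The lowest after HOXB1 and HOXC12 was HOXA2 (32.8). With flanks, 31 of the 39 loci overlap another HOX locus, so neighbouring genes share peaks and are not independent values.

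In all, 215 of the 295008 regions with a peak in at least 2 libraries lay in the clusters (62 in HOXA, 61 in HOXB, 44 in HOXC and 48 in HOXD). Of these, 88 (40.9%) held a peak in all 15 libraries, against 35.6% of all regions. Their sequence stood apart in base composition. In windows of 300 bp the median GC content was 58.3% in HOX regions and 46.3% over all regions, and the median ratio of observed to expected CpG was 0.641 against 0.193. GGGCGG, the box bound by SP and KLF factors, was found on either strand in 38.1% of HOX regions (exact 95% interval 31.6 to 45.0, counting error only) and in 11% of all regions. The motif TTTATNG of posterior HOX proteins occurred in 16.7% (12 to 22.4) against 13.3%. The PBX-HOX composite TGATTNAT occurred in 5.58% (2.92 to 9.55) against 6.72%, and the homeodomain core TAATTA in 5.12% (2.58 to 8.97) against 6.63%. The POU octamer ATGCAAAT occurred in 1.40% against 2.03%, and the CTCF core CCACNAGG in 5.58% against 6.5%. The direct repeat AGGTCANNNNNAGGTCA of retinoic acid receptors occurred in 0 of 215 regions, where the exact interval reaches up to 1.70%, against 0.0129% of all regions. In the narrower windows of 150 bp, TTTATNG occurred in 11.2% of HOX regions (7.28 to 16.2) against 5.93%, and GGGCGG in 22.8% (17.4 to 29.0) against 7.01%. For TTTATNG the share over all regions thus lay inside the interval at 300 bp and below it at 150 bp. A match is a description of the letters and not a bound site.

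To ask whether accessibility of the HOX loci differed after loss of SETD2, bases under peaks over each gene and its 2 kb flanks were compared between KO and WT with limma. Of 37 tested HOX genes, 4 were higher in KO at an adjusted p under 0.05, beside 14.5% of all 17879 genes tested, and 1 was lower, beside 12.1%. The higher ones were HOXD13, HOXB8, HOXA5 and HOXB7. The HOX shares, 10.8% and 2.70% of the 37, were no larger than these backgrounds. The median log2 fold was 0.05 over HOX genes and -0.01 over all genes. Divided by all bases under peaks in each library, the median over all genes moved to -0.13 and that of HOX genes to -0.06, with 2 HOX genes higher, beside 13% of all genes, and 7 lower, beside 36.3%. The KO and WT libraries of 3 of the 37 HOX genes did not overlap (8.11%), beside 23.3% of all genes.

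HOXD13, the gene at the posterior end of the HOXD cluster that patterns the digits and the hindgut, changed most. It carried 675, 556 and 700 bases under peaks in WT, 1200, 1334 and 1350 in KO1, and 1266, 907 and 1156 in KO2. In Rescue1 the values were 832, 1003 and 1003, and in Rescue2 they were 1137, 1086 and 798. Every KO and every rescue library lay above every WT library. The log2 fold of KO over WT was 0.80 ± 0.12 (SE), a 1.74-fold difference on the scale of log2(bases + 100), with limma adjusted p = 4.34e-05, and the call held without any 1 library (adjusted p up to 0.000827). The number of peaks in the locus gave no call (log2 fold 0.39, adjusted p = 0.215). The 250 bases before its start, at chr2:176092471-176092720 on the plus strand (RefSeq, GRCh38.p14), are shown because the largest HOX difference lies at this gene. Capitals mark GGGCGG, found 2 times.
HOXD13 promoter: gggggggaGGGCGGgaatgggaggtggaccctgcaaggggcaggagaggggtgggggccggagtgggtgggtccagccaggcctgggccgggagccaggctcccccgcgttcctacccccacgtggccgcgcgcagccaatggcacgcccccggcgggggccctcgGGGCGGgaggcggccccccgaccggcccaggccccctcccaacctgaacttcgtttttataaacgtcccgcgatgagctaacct

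HOXB8, a central paralog, ranked next among the calls by adjusted p. It had 462, 423 and 450 bases in WT, 866, 693 and 584 in KO1, and 699, 780 and 779 in KO2. All KO libraries were above all WT libraries, while Rescue1 had 679, 466 and 783 and Rescue2 had 666, 579 and 727. The log2 fold of KO over WT was 0.61 ± 0.14 (SE), with limma adjusted p = 0.00269 and, without any 1 library, adjusted p up to 0.0170. Counted as number of peaks, the direction turned (log2 fold -0.12, adjusted p = 0.807).

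HOXA5 and HOXB7, the other genes called higher, overlapped between groups. HOXA5 carried 212 to 251 bases in WT, 369, 536 and 589 in KO1, and 202, 434 and 264 in KO2, so that its higher values lay mainly in KO1. Its log2 fold was 0.52 ± 0.18 (SE; adjusted p = 0.0459). It was not called without any 1 of WT replicate 1, 2 or 3, KO1 replicate 2, KO1 replicate 3 or KO2 replicate 2 (adjusted p = 0.0790 to 0.150), and the exact permutation test gave p = 0.119. With flanks of 5 kb its direction turned (log2 fold -0.04, adjusted p = 0.865). HOXB7, whose gene record spans HOXB8, had a log2 fold of 0.26 ± 0.08 (SE; adjusted p = 0.0297). That call was lost without WT replicate 2, WT replicate 3, KO1 replicate 1, KO1 replicate 3 or KO2 replicate 1 (adjusted p = 0.0585 to 0.182).

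**Figure D2:**
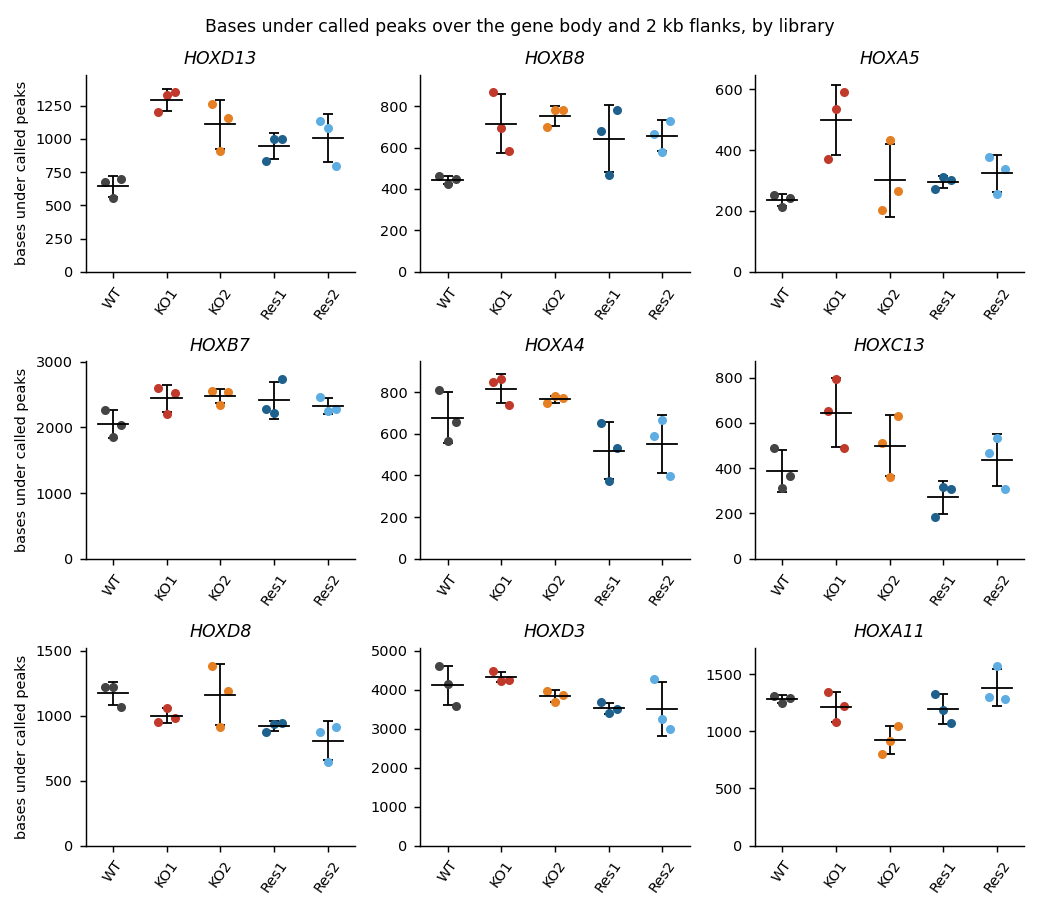
Bases under called peaks over the gene and 2 kb on each side for HOX genes called in KO against WT or rescue against KO, by library (points, 3 a line; Res1 and Res2 are Rescue1 and Rescue2), with the mean (bar) and SD (whiskers). All 12 KO and rescue libraries of HOXD13 sit between 798 and 1350, above the WT libraries at 556 to 700.

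Re-expression of SETD2 was then examined by comparing rescue with KO. Of the 37 tested HOX genes, 1 was higher in rescue (HOXA11), beside 23.2% of all genes tested, and 5 were lower (HOXC13, HOXA4, HOXD8, HOXD13 and HOXD3), beside 7.04%. The HOX shares were 2.70% and 13.5%. The median log2 fold was -0.09 over HOX genes and 0.08 over all genes. Per base under peaks in each library the HOX counts were 1 higher, beside 22.3% of all genes, and 10 lower, beside 14%. This comparison shares the KO libraries with KO against WT, so the directions of both for one gene are not independent.

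HOXA4 was the only one of the 37 HOX genes whose rescue and KO libraries did not overlap, beside 11.5% of all genes. It carried 850, 861 and 736 bases in KO1 and 746, 779 and 770 in KO2, against 649, 374 and 532 in Rescue1 and 589, 667 and 397 in Rescue2. WT, at 812, 566 and 655, overlapped both groups. The log2 fold of rescue over KO was -0.51 ± 0.12 (SE; limma adjusted p = 0.00439). The exact permutation test on bases gave an unadjusted p = 0.00216, the smallest it can give here. Groups of this size that do not overlap always give that p, so it only restates the separation. The call held without any 1 library (adjusted p up to 0.0131), and was lost with flanks of 5 kb (-0.09, adjusted p = 0.403). Its upstream sequence, at chr7:27130781-27131007 on the minus strand, is shown for that separation, with GGGCGG in capitals and the bases of an annotated UTR left out.
HOXA4 promoter: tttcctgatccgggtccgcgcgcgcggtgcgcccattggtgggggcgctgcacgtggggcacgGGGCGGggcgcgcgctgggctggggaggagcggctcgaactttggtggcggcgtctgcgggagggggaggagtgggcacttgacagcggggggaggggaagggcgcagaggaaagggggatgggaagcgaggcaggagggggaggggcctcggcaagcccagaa

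HOXC13, a posterior gene known for hair and nail formation, had the lowest rescue-to-KO fold, -0.58 ± 0.16 (SE; adjusted p = 0.0103). Its KO libraries held 651, 792 and 488 bases in KO1 and 509, 362 and 628 in KO2. Rescue1 held 186, 317 and 309 and Rescue2 held 468, 534 and 309, so the lowest single value was in Rescue1. The call held without any 1 library (adjusted p up to 0.0331), but Rescue2 alone against KO gave -0.32 (adjusted p = 0.248). HOXD13 was lower in rescue than in KO by -0.27 ± 0.10 (SE; adjusted p = 0.0383). Counted as number of peaks, that direction turned (log2 fold 0.26, adjusted p = 0.312). The call was lost without Rescue2 replicate 3, Rescue1 replicate 1, KO2 replicate 3, KO2 replicate 1, KO1 replicate 3 or KO1 replicate 2 (adjusted p = 0.0665 to 0.106). It was also lost with the replicate number fitted as a block.

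HOXD8 and HOXD3, of the same cluster, were lower by -0.29 ± 0.09 (SE; adjusted p = 0.0271) and -0.21 ± 0.08 (SE; adjusted p = 0.0441). The call of HOXD8 was lost without Rescue2 replicate 2, Rescue1 replicate 1, KO2 replicate 1 or KO1 replicate 2 (adjusted p = 0.0597 to 0.0843). Leaving out any library of the comparison but Rescue2 replicate 1 lost the call of HOXD3 (adjusted p = 0.0539 to 0.104). HOXA11 was the one gene higher in rescue. It carried 1344, 1078 and 1226 bases in KO1, 806, 919 and 1049 in KO2, 1330, 1187 and 1074 in Rescue1, and 1300, 1571 and 1281 in Rescue2. The KO2 libraries were its lowest, and WT held 1248 to 1314. Its log2 fold of rescue over KO was 0.26 ± 0.08 (SE; adjusted p = 0.0194), with an exact permutation p of 0.0693. The call was lost without any of the 4 libraries named for HOXD8 (adjusted p = 0.0578 to 0.0613).

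**Figure D3:**
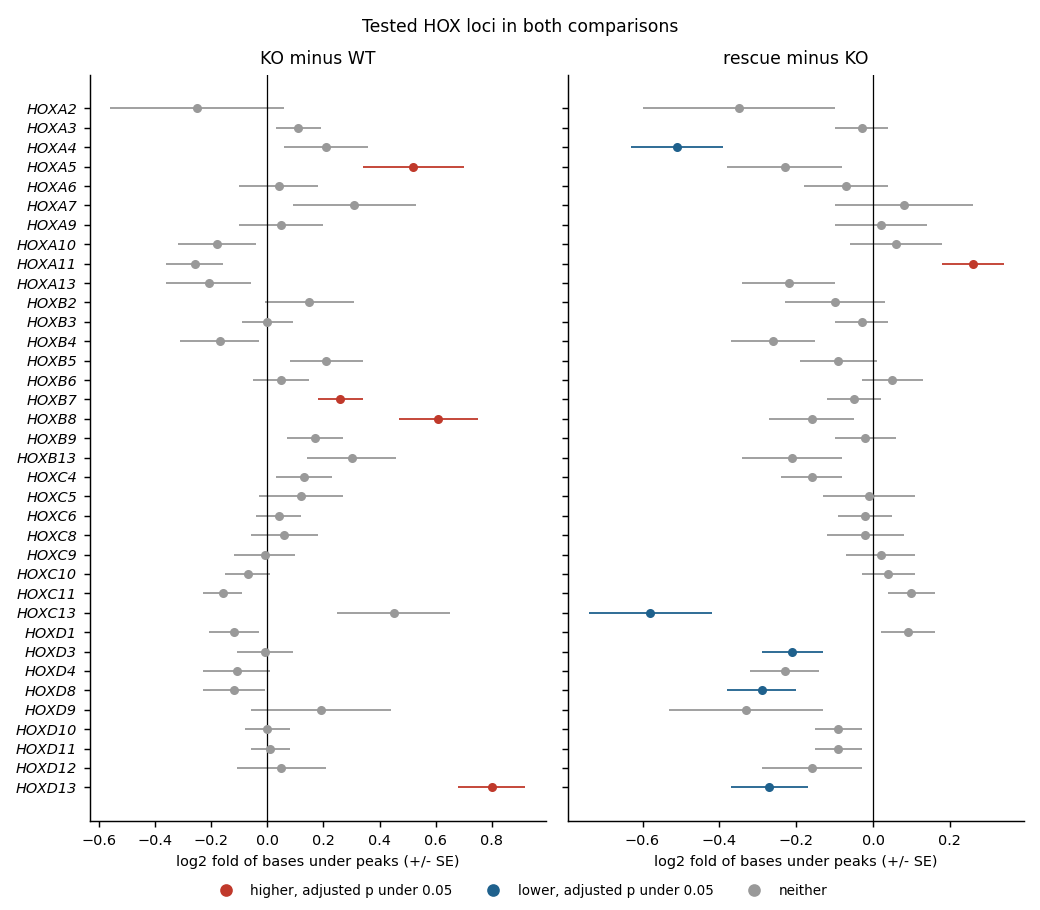
Log2 fold of bases under peaks for tested HOX genes, KO minus WT (left) and rescue minus KO (right), with the SE as bars and calls at a limma adjusted p under 0.05 in colour. HOXD13 stands farthest to the right in KO minus WT at 0.80, and HOXC13 farthest to the left in rescue minus KO at -0.58.

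The posterior paralogs of groups 10, 11 and 13 were followed as a set, since they pattern the kidney and the structures behind it. In KO against WT, HOXD13 was the only call among these 10 genes, beside 14.5% of all genes called higher and 12.1% called lower. HOXA10, HOXC10 and HOXD10 differed by -0.18, -0.07 and 0.00 on the log2 scale (adjusted p = 0.405, 0.570 and 0.985). HOXA11, HOXC11 and HOXD11 differed by -0.26, -0.16 and 0.01 (adjusted p = 0.0565, 0.128 and 0.951). The remaining group 13 genes, HOXA13, HOXB13 and HOXC13, differed by -0.21, 0.30 and 0.45 (adjusted p = 0.334, 0.197 and 0.106). In rescue against KO, HOXA11 was called higher and HOXC13 and HOXD13 lower, as above, beside 23.2% and 7.04% of all genes. HOXA10, HOXC10 and HOXD10 then differed by 0.06, 0.04 and -0.09, HOXC11 and HOXD11 by 0.10 and -0.09, and HOXA13 and HOXB13 by -0.22 and -0.21, with adjusted p from 0.189 to 0.729. In level, HOXC10 ran from 1275 to 1686 bases over the 15 libraries, HOXD10 from 1744 to 2415 and HOXA10 from 1025 to 1931, with both ends of the last range in Rescue2.

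Taken clone by clone, HOXD13 was higher than WT in all 4 engineered clones. The log2 folds were 0.91 ± 0.14 (SE) in KO1, 0.70 ± 0.14 in KO2, 0.49 ± 0.14 in Rescue1 and 0.57 ± 0.14 in Rescue2, with limma adjusted p of 6.15e-05, 0.00104, 0.0170 and 0.00551. The 4 contrasts share the WT libraries. The rescue clones were made from knockout cells, so the 4 clones are not independent derivations. WT is the parental line and each engineered line is a clone, and the part of cloning was not tested. KO1 had 3 HOX genes higher than WT (HOXD13, HOXA5 and HOXB8), beside 11.9% of all genes, and 1 lower, beside 10.7%. KO2 had 2 higher (HOXD13 and HOXB8), beside 12.8%, and 1 lower (HOXA11, -0.44, adjusted p = 0.00780), beside 8.60%. Rescue1 had HOXD13 higher, beside 11.8%, and HOXB4, HOXA13 and HOXD4 lower (-0.72, -0.56 and -0.43; adjusted p = 0.00340, 0.0301 and 0.0343), beside 5.18%. Rescue2 had HOXD13 and HOXB8 higher, beside 20.0%, and HOXD8 lower (-0.50, adjusted p = 0.0112), beside 2.55%.

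Direct contrasts between clones gave no HOX call in limma. For KO2 against KO1 the counts were 0 higher, beside 2.32% of all genes, and 0 lower, beside 0.632%, with 1 and 2 HOX genes at an unadjusted p under 0.05. The largest of these was HOXA5, at -0.60 ± 0.21 (SE; adjusted p = 0.181). For Rescue2 against Rescue1 the counts were 0 higher, beside 2.41%, and 0 lower, beside 0.268%, with 3 and 0 at an unadjusted p under 0.05. Among those was HOXB4, at 0.58 ± 0.16 (SE; adjusted p = 0.0558), with 580, 395 and 701 bases in Rescue1 and 931, 806 and 871 in Rescue2. Differences between clones of one kind, such as the HOXA5 values of KO1 and KO2, were thus not established for any HOX gene.

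Each cluster was also taken as a whole. In KO against WT no cluster passed the exact permutation test, whose smallest p is 0.0238. HOXB carried 10664, 9306 and 10366 bases in WT and 10349 to 11944 in KO, a difference of 10.2% (exact permutation p = 0.0714). HOXA, HOXC and HOXD differed by -2.30%, 4.20% and 2.10% (exact permutation p = 0.714, 0.5 and 0.690). In rescue against KO, HOXD carried 12220, 12391 and 12603 bases in KO1, 12387, 11372 and 12600 in KO2, 11491, 10728 and 11552 in Rescue1, and 12260, 10456 and 10244 in Rescue2. The groups overlapped, and the difference of -9.30% had an exact permutation p of 0.0195 and 0.0779 after Benjamini-Hochberg adjustment over the 4 clusters, so it did not pass. HOXA, HOXB and HOXC differed by 2.70%, -1.90% and -3.10% (exact permutation p = 0.543, 0.569 and 0.452).

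**Figure D4:**
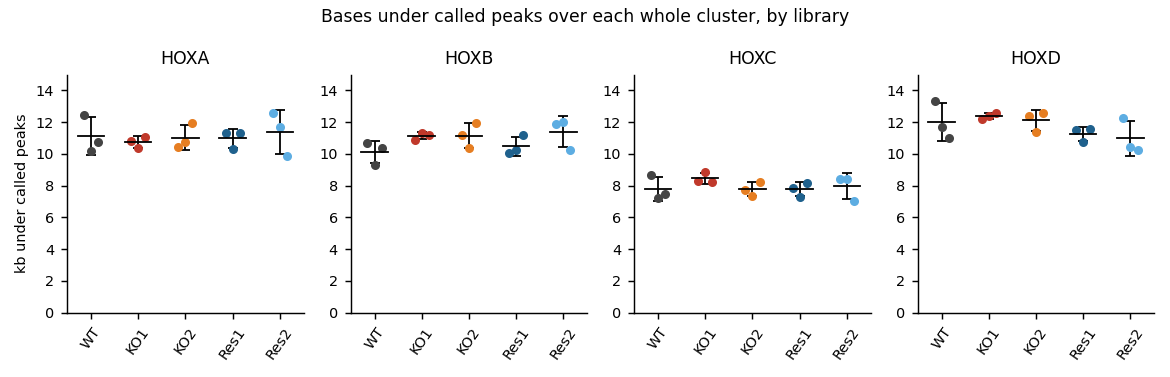
Kb under called peaks over each HOX cluster and 2 kb on each side, by library (points, 3 a line; Res1 and Res2 are Rescue1 and Rescue2), with the mean (bar) and SD (whiskers). In all 4 clusters the KO libraries overlap the WT libraries and the rescue libraries, and in HOXD the rescue libraries reach from 10244 to 12260 bases and the KO libraries from 11372 to 12603.

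Single regions were called gained or lost where all libraries of one group and none of the other held a peak. In KO against WT, 2 of the 215 HOX regions were gained, beside 4.79% of all regions, and 5 were lost, beside 2.48%. In rescue against KO, 0 were gained, beside 0.910%, and 2 were lost, beside 1.24%. No region was called in both comparisons, and none lay in HOXA.

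Both gains lay in HOXB. One held a peak in all 12 KO and rescue libraries and in no WT library, with a median fold enrichment at the 76.9th percentile. Its sequence is repeated elsewhere, since 72.6% of its words of 16 bases occur at least 10 more times on chromosome 17. Of the 215 HOX regions, 3 had over 50% of such words, and the median was 0.00%, and the placement of reads in such sequence was not tested. The other gain held a peak in 0 of 3 WT, all 6 KO, 1 of 3 Rescue1 and 2 of 3 Rescue2 libraries.

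Among the losses, chr17:48567216-48567357, in an intron of HOXB3, was held by the 3 WT libraries and by no other library. It is printed on the plus strand of hg38 because it set WT apart from all engineered clones. Capitals mark the homeodomain core TAATTA, the one match to the 7 motifs.
chr17:48567216-48567357: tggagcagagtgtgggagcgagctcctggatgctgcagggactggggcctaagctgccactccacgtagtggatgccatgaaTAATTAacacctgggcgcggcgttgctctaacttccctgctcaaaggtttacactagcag

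A further loss in HOXB, chr17:48600645-48600791 inside HOXB6, was held by all 3 WT and all 3 Rescue2 libraries and by no other. Both losses in HOXD were weak peaks, at the 1.5th and 3.59th percentile of fold enrichment. One, chr2:176136653-176136986, overlaps exons of HOXD3 and the antisense gene HOXD-AS2, and the other, chr2:176178957-176179203, overlaps exons of HAGLR and HAGLROS. ATAC-seq does not tell the strands apart, so neither region can be given to one gene of its pair. Of the 2 regions lost in rescue against KO, 1 lay in HOXC and 1 in HOXB, and both were held by all 6 KO libraries and no rescue library.

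**Figure D5:**
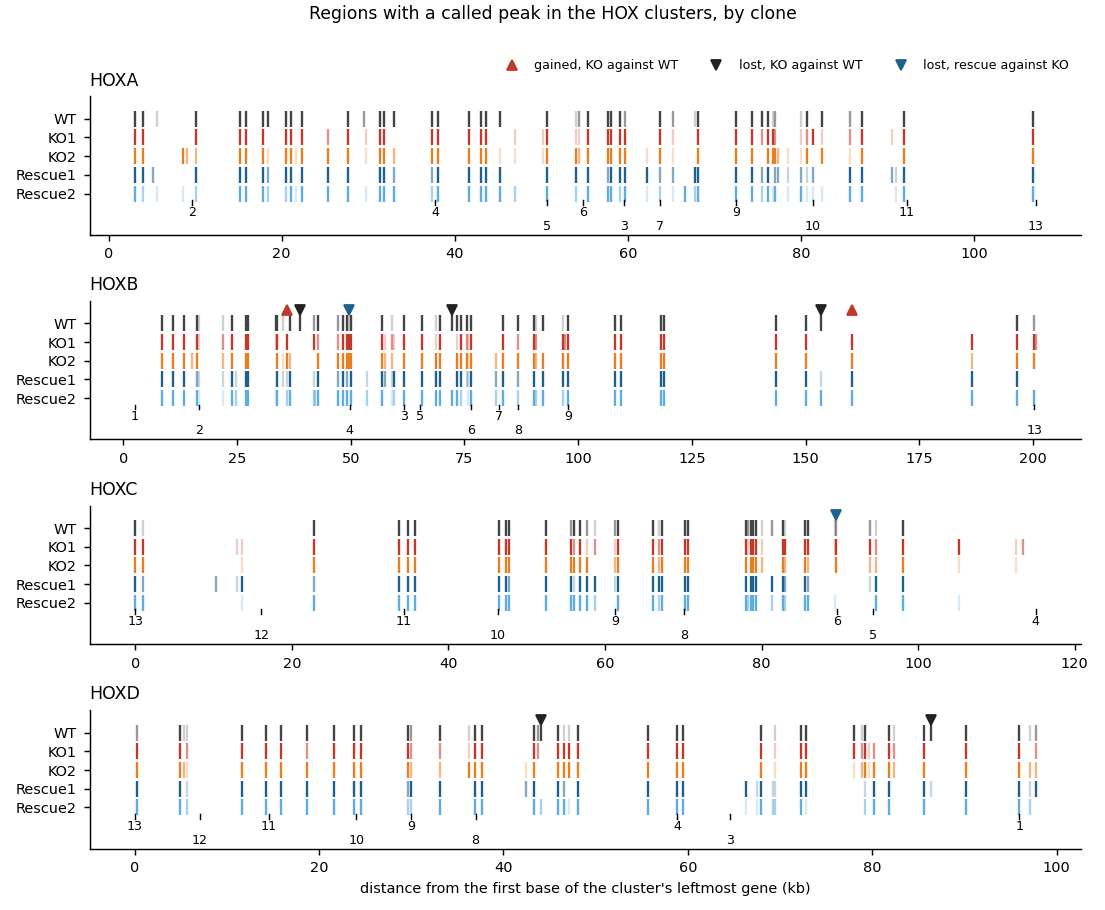
Regions with a called peak along the 4 HOX clusters by line, as distance in kb from the first base of the leftmost gene, with fainter marks where 1 or 2 of the 3 libraries hold the peak. Numbers under each cluster give the start sites by paralogous group, and triangles mark the 9 regions gained or lost, of which 6 lie in HOXB.

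The genes that act with HOX proteins or upon their clusters were described from lists. Of 9 cofactors of the PBX, MEIS and PKNOX families, which bind DNA together with HOX proteins, 8 held a start-site peak in all libraries. In KO against WT, 1 was higher (PKNOX2, 0.33, adjusted p = 0.0290) and 0 lower, beside 14.5% and 12.1% of all genes. In rescue against KO, 1 was higher (PBX4, 0.27, adjusted p = 0.00416) and 1 was lower, beside 23.2% and 7.04%. All 16 Polycomb and Trithorax regulators held a start-site peak in all libraries. Of these, 2 were lower in KO, a share near the 12.1% of all genes, namely RING1, a ubiquitin ligase of Polycomb complex PRC1 (-0.49, adjusted p = 0.0120), and EED, a subunit of PRC2 (-0.22, adjusted p = 0.0470). Both were higher in rescue against KO (0.63, adjusted p = 0.000324, and 0.27, adjusted p = 0.00357), beside 23.2% of all genes, and no other member of the list was called in either comparison. Of 18 antisense and long noncoding genes of the clusters, 9 held a start-site peak in all libraries, among them HOTAIR, HOTAIRM1 and HAGLR, and 4 in none, among them HOTTIP.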

How the data were processed

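ATAC-seq peak lists of 15 libraries (5 lines, 3 each) were used. The authors aligned reads with BWA (0.7.17 in the submitters' processing notes, where the paper's methods name another version) and called peaks per library with MACS2 2.2.7.1 on hg38. Control, duplicate and blacklist settings were not given in the sources used here. Each list deposited by the authors holds intervals, a whole-number score, the fold enrichment of the summit over local background, and −log10 p and −log10 q values. Fold enrichment was used only within a list. Read counts were not used here, nor were the depth metrics that the paper lists in its supplement, so depth per sample was not examined. No column beyond these was present.

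Groups followed the labels: KO was KO1 with KO2, rescue was Rescue1 with Rescue2. Only chromosomes 1 to 22, X and Y entered. Bases under peaks over each GENCODE v44 gene and 2000 bp flanks were fitted as log2(bases + 100) with limma 3.58.1 (R 4.3.3; trend, robust) in 1 model over all 15 libraries, for the 17879 protein-coding genes with a mean of at least 100 bases, and p-values were Benjamini-Hochberg adjusted over all of them. The fit was tested on simulated data. Cluster totals, with 2 kb flanks, were compared by two-sided exact permutation tests. Peaks merged by at least 1 bp and held by at least 2 libraries formed regions, and gains and losses had no test. Start sites were those of Ensembl canonical transcripts. Local background was solved from fold and p, an addition made after the lists were examined, as were the counts of repeated words. Sequences came from the hg38 reference and from RefSeq promoter windows. Of 30 pairs of libraries with the same replicate number, 0 had deviations from their group means correlated above 0.1 across genes. This cannot show whether same-numbered libraries were prepared together, and the main fit did not pair them. Alternatives were thresholds, list length, flanks, pseudocounts, filters, scaling, peak number, single clones, a replicate block and leaving out each library.

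Genes named were those called in KO against WT or rescue against KO, paralogous groups 10, 11 and 13, and genes with no start-site peak; regions named were up to 4 per cluster and comparison by fold enrichment, and the other called region was added. Some called genes and regions are counted but not reported here. The members and lists were chosen with earlier results of these data known. Python 3.11.15, scipy 1.17.1 and pysam 0.24.0 were used.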

Additional observations from a re-analysis of the deposited data

Results flagged for a closer look

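In the KO and rescue groups of 6 libraries each, 36 of the 37 tested HOX genes and the 4 clusters gave 80 sets of values, and 3 of these held a library far from the others by Dixon's criterion. Chance alone marks about 1 in 20 sets. HOXD8 had 640 bases under peaks in Rescue2 replicate 2, against 875 to 947 in the other rescue libraries, and its call in rescue against KO was lost without that library. HOXB5 had 808 bases in Rescue2 replicate 2, above the others at 611 to 663. The HOXD cluster had 11372 bases in KO2 replicate 2, against 12220 to 12603 in the other KO libraries.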

How the results depend on the processing

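Of 141 alternative values for the gene calls named, leaving out the fits without 1 library, 94 kept direction and call, 44 kept direction and lost the call, and 3 turned. The 3 were HOXA5 with flanks of 5 kb (-0.04), HOXB8 by number of peaks (-0.12) and HOXD13 in rescue against KO by number of peaks (0.26). The cause was not tested. The count of 5 HOX genes called in KO against WT became 2 at the stricter threshold, 0 by number of peaks, 9 per base under peaks and 3 with KO2 alone. It ran from 2 to 6 without 1 library (2 without KO1 replicate 3, and 3 without any WT library or KO2 replicate 2). Over all 17879 genes, 2593 were higher and 2166 lower in the main fit, and 2331 and 6492 per base under peaks. At the stricter threshold the counts were 2283 and 2051 of 17643 genes, and with KO2 alone the shares were 12.8% and 8.60%. The 6 called in rescue against KO became 1 by number of peaks, 11 per base under peaks, and 3 each with KO2, Rescue1 or Rescue2 alone. They ran from 2 to 7 without 1 library (2 without KO1 replicate 2 or KO2 replicate 1, and 3 without Rescue1 replicate 1 or Rescue2 replicate 2). Over all genes, 4144 were higher and 1259 lower in the main fit, and 3986 and 2507 per base under peaks. The shares over all genes were not taken by number of peaks, under the block below or without 1 library. With the replicate number as a block the counts were 4 and 6. Under the block HOXA5 lost its call in KO against WT (limma adjusted p = 0.0577), as did HOXD13 in rescue against KO (limma adjusted p = 0.0531), and no other call named was lost. Permuted within replicate numbers, the HOXD difference in rescue against KO of -1140 bases had an exact permutation p of 0.0185, and the test cannot pass for KO against WT.

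Per 1000000 bases under peaks, HOXA was lower in KO than in WT by -20.3 (unadjusted exact permutation p = 0.0238) and HOXB lower in rescue than in KO by -11.8 (unadjusted exact permutation p = 0.00216). The HOXD difference in rescue against KO (unadjusted p = 0.0195) was -915 bases with equal lists, -2.83 peaks by number, -998 with KO2 alone, -1010 with Rescue1 alone and -1280 with Rescue2 alone, all at a p over 0.05. Without 1 library, KO against WT ranged from -732 to 408 bases for HOXA, 630 to 1310 for HOXB, 53.0 to 759 for HOXC and -273 to 919 for HOXD. HOXB had an unadjusted p under 0.05 without KO2 replicate 2 (1190 bases, exact permutation p = 0.0357), HOXA changed sign without WT replicate 1 and HOXD without WT replicate 3. Rescue against KO ranged from 14.7 to 558 for HOXA, -427 to -32.0 for HOXB, -408 to -84.6 for HOXC and -1370 to -965 for HOXD. The regions gained in KO against WT (2) became 4 with at least 50% of the region covered, 23 by majority, and 5 with KO1 or KO2 alone, and 2 to 6 without 1 library (6 without WT replicate 1). The 5 lost became 3 with equal lists, 16 by majority and 10 with KO1 alone, and 5 to 6 without 1 library. Over all regions, 7.06% were gained and 4.80% lost with KO1 alone, and 8.34% were gained with KO2 alone. For the other settings of the region calls, in both comparisons, the shares over all regions were not taken. In rescue against KO the 0 gained became 2 with equal lists, 1 at 50% covered, 15 by majority, and 3 with KO1, Rescue1 or Rescue2 alone, and 0 to 1 without 1 library (1 without KO2 replicate 3, Rescue2 replicate 2 or Rescue2 replicate 3). The 2 lost became 0 at the stricter threshold, 1 with equal lists, 16 by majority and 5 with Rescue1 alone, and 2 to 4 without 1 library (4 without Rescue2 replicate 1). The 23 start sites occupied in all libraries became 15 at the stricter threshold and 13 with equal lists. The HOX share thus moved from 59.0% to 38.5% and 33.3%. Over all protein-coding genes it moved from 66.2% to 64.3% and 62.9%, so the HOX share fell further. The start-site and region counts thus depend on the calling threshold.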

Other observations

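Genes around and upstream of the HOX clusters were counted in the same fit. Of 13 tested genes that flank the clusters, 2 were higher in KO than in WT, namely EVX1, a homeobox gene beside HOXA13 (0.56, limma adjusted p = 0.00729), and ATF2 (0.28, adjusted p = 0.0290), and 1 was lower, SKAP1 (-0.33, adjusted p = 0.0322). Over all genes tested 14.5% were higher and 12.1% lower, so these counts were near the background. EVX1 lies next to the posterior end of HOXA, whose own gene HOXA13 was not called. Of 5 tested ParaHox genes, CDX2, which acts upstream of posterior HOX genes, was the only one higher in KO (0.85, adjusted p = 0.000275). Its start site held a peak in 1 of 15 libraries, a KO1 library. In rescue against KO, 2 of the 5 were lower, CDX2 (-0.57, adjusted p = 0.00159) and PDX1 (-1.17, adjusted p = 0.00200), beside 7.04% of all genes. The PDX1 fold rests on low values, with means of 215 bases in KO and 42 in rescue. Of 10 genes of retinoic acid signalling, which sets HOX expression in the embryo, 3 were higher in KO than in WT, beside 14.5% of all genes. These were the receptor RARB (0.46, adjusted p = 0.000691), the receptor RXRG (0.48, adjusted p = 0.0453) and the synthesizing enzyme ALDH1A3 (0.34, adjusted p = 0.00515). RARB and ALDH1A3 held a start-site peak in all 15 libraries, and RXRG in the 3 KO2 libraries alone.

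Among 5 markers of the nephron progenitor, where EYA1 acts beside the HOX11 paralogs, EYA1 carried a mean of 181 bases under peaks in WT, 5812 in KO and 1520 in rescue (log2 fold of KO over WT 4.46, adjusted p = 7.16e-13). SIX2, PAX2, SALL1 and CITED1 were not called in KO against WT, and HOXA11, HOXC11 and HOXD11 were not called there either. In 27 RefSeq promoter windows of 20 HOX genes, the median ratio of observed to expected CpG was 0.849, against 0.579 over 35116 windows, at a like GC content of 58.0% against 58.7%. GGGCGG occurred in 48.1% of the HOX windows and 45.0% of all, so its excess among accessible regions was not seen between promoter windows. These windows were taken whether or not they held a peak. TTTATNG occurred in 25.9% (7 of 27) against 9.73%. TGATTNAT, TAATTA and ATGCAAAT each occurred in 7.41% (2 of 27), against 2.82%, 4.84% and 1.77%. CCACNAGG occurred in 3.70% against 4.93%, and the AGGTCA direct repeat in 0 against 0.0057%.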
